A study of Mus musculus with 24 samples.

Results

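Tgfbi, Postn, Ltbp2, Skil, Tgif1, Cdkn2b and Bhlhe40 are genes known to be switched on by TGF-beta, none of them a contractile gene of smooth muscle. The 7 genes were chosen by name from 18193 genes with a probe set of their own on the array, and all 7 passed the filter on low values that kept 14879 genes for testing. They were followed in the jaws of mouse embryos, C57B6 per the labels, at embryonic day 12.5. The knockouts carried Wnt1-Cre and floxed Tgfbr2. The series text names a cleft palate and a defect of the skull vault as traits of these knockouts. Littermates served as controls, of a genotype that the sources used here do not state. Wnt1-Cre acts in neural crest, the origin of most mesenchyme of the face, so muscle, epithelial, endothelial and blood cells of a knockout jaw are not expected to lose the gene. Each jaw was split into a distal and a proximal end, giving 8 groups of 3 arrays: knockout and control, mandible and maxilla, distal and proximal.

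TGF-beta binds the type II receptor encoded by Tgfbr2, which recruits a type I receptor that phosphorylates Smad2 and Smad3. These enter the nucleus with Smad4 and act on target genes, some of which encode matrix proteins and others brakes on the pathway or on the cell cycle. In the jaw the pathway acts on neural crest cells that build the palate, the mandible and the connective tissue around muscle.

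Values are log2 signal as deposited, so a difference of 1 is a doubling of signal, and the changes given are knockout minus control, mandible minus maxilla or distal minus proximal. A gene was called at an adjusted p under 0.05 by limma's moderated test, with Benjamini-Hochberg adjustment across all 14879 genes. No label says whether arrays within a group are separate embryos, so p-values measure only the spread between arrays. These are bulk tissues, in which fewer cells of a type and less RNA per cell cannot be told apart.

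The targeted gene was not lower in the knockout arrays. Tgfbr2 averaged 12.11 ± 0.40 in knockout arrays and 11.78 ± 0.29 in control arrays (SD, n = 12 each), and the change of 0.34 did not pass (adjusted p = 0.112, limma). Its group mean was higher in knockouts in each region, at 12.29 against 11.90 in the distal mandible and 12.38 against 12.07 in the proximal mandible. In the maxilla the means were 11.75 against 11.54 distally and 12.03 against 11.61 proximally. The sources used here do not place the probe sets of Tgfbr2 against the floxed exon, so these values do not check the labels. Array medians lay between 7.26 and 7.38. By the correlation of deviations over all genes, 9 of 24 arrays resembled the other end of their own jaw and genotype more than their own group. Both ends of the knockout mandible number 1 and of the control maxilla number 1 were among them, at 0.33 and 0.44 with their own groups against 0.67 and 0.54 with the other end, and at 0.36 and 0.54 against 0.81 and 0.81. These 4 arrays numbered 1 had been singled out with earlier results known, and results are also given without them. The other 5 were kept, at 0.20 to 0.59 with their own group against 0.33 to 0.68 with the other end. They include number 3 of the knockout proximal maxilla (0.20 against 0.33). The 4 control arrays numbered 2 stood apart in Eif2s3y, a gene on the Y chromosome, with 10.2 to 10.4 against 3.42 to 3.88 in the other 20 arrays. In each control group array 2 thus came from another embryo or pool than arrays 1 and 3. All knockout arrays were among the 20, so the high signal occurred in controls only. The list of facial mesenchyme markers lay between 11.47 and 12.46 in knockout arrays and between 11.63 and 12.57 in control arrays.

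Over the 4 regions no member was called between knockout and control, against 70 of 14879 genes (0.47%). The median size of the members' changes, whatever their sign, was 0.28, against 0.07 for all genes tested. Their spread within groups was also wider, since 6 of 7 had a residual SD between 0.16 and 0.39, above the median of 0.13 for all genes. Of the members, 6 of 7 had an unadjusted p under 0.05, against 3459 genes or 23.2%. Postn had a change of 0.42 (SE 0.11, adjusted p = 0.0623, limma) and Ltbp2 one of 0.51 (SE 0.14, adjusted p = 0.0635). Bhlhe40, Tgfbi and Cdkn2b had changes of 0.30, 0.28 and 0.24, while Tgif1 and Skil had changes of -0.18 and -0.11. The 2 negative values belong to the 2 nuclear repressors of Smad signalling among the members. Postn, Ltbp2, Cdkn2b and Bhlhe40 had a positive change in 4 of 4 regions, Tgfbi in 3, and Skil and Tgif1 in 1. Among all genes tested, 28.8% had the same sign in all 4 regions.

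**Figure D1:**
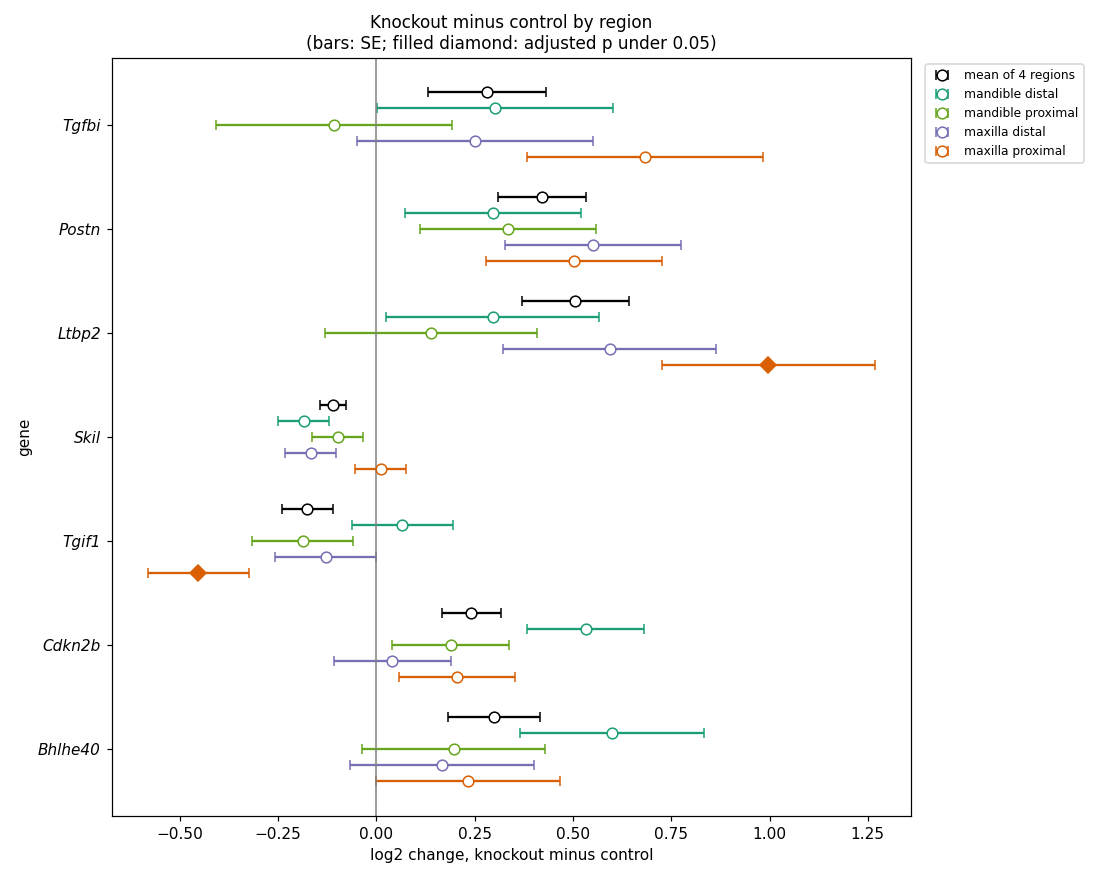
Change between knockout and control arrays (log2, horizontal axis) of each member over the mean of the 4 regions and in each region. Bars are standard errors, filled diamonds mark an adjusted p under 0.05, and the filled points are Ltbp2 at 1.00 and Tgif1 at -0.45 in the proximal maxilla.

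The arrays carry numbers 1 to 3, and the test takes arrays that share a genotype and number as independent. When the 4 regions of each genotype and number were averaged, the 3 knockout means and the 3 control means of every member were apart, 7 of 7, against 2464 genes or 16.6%. Postn had means of 12.93, 12.36 and 12.44 in knockouts 1, 2 and 3, against 12.20, 12.18 and 12.08 in controls. Ltbp2 had 6.07, 5.50 and 5.35 in knockouts, against 5.22, 5.13 and 5.06 in controls. Bhlhe40 had 8.004, 7.57 and 7.51 in knockouts, against 7.42, 7.50 and 7.26 in controls. Knockout 1 was the highest of the 6 for these 3 genes and for Tgfbi, and the lowest for Skil and Tgif1, whereas for Cdkn2b it was the lowest knockout. A fit to the 6 means called none of the members and no gene at all, with adjusted p between 0.427 and 0.495 for the members. Over single arrays no member's 12 knockout values were all above or all below its 12 control values, against 5 genes or 0.0336%.

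**Figure D2:**
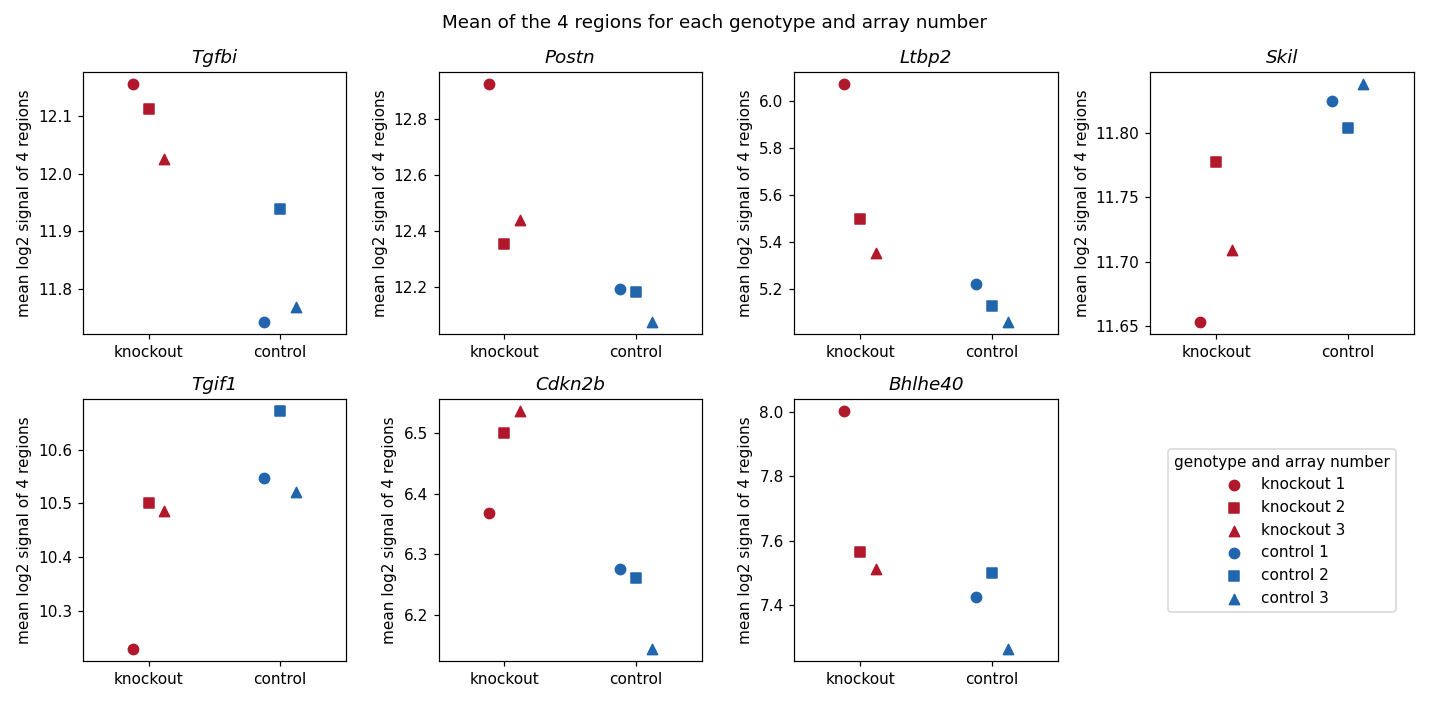
Mean log2 signal of the 4 regions (vertical axis, own scale for each gene) for each genotype and array number, without error bars. All knockout means lie above all control means for Tgfbi, Postn, Ltbp2, Cdkn2b and Bhlhe40 and below them for Skil and Tgif1, and knockout 1 stands highest for Ltbp2 at 6.07.

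Without the 4 knockout arrays numbered 1, the changes were 0.25 for Postn, 0.29 for Ltbp2, 0.14 for Bhlhe40 and -0.09 for Tgif1, with 0.25 for Tgfbi, 0.29 for Cdkn2b and -0.08 for Skil. For Postn, Ltbp2, Bhlhe40 and Tgif1 the change without knockout 1 was smaller by more than 1.5 times. No member was called then either, and adjusted p lay between 0.169 and 0.626.

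Markers of other cell types were also compared between the genotypes. All 8 skeletal muscle markers had a positive change over the 4 regions, with a median of 1.77 and none called, and the mean level of the list ran from 6.24 through a median of 11.19 to 12.004 in knockout arrays and from 6.29 through 7.996 to 11.60 in control arrays. The 5 Schwann cell precursor markers tested had a median change of 0.59, with Cdh19 called, and the 7 neuron markers one of 0.34, with Nefl and Sncg called. The 6 macrophage markers had a median change of 0.32, all positive, and none was called. Across the 24 arrays, which share their groups, Postn and Bhlhe40 ran with the skeletal muscle list at r = 0.77 and 0.78, and Cdkn2b did so at 0.72. Postn ran about as closely with the smooth muscle list (0.77) and the tendon and connective tissue list (0.76). Cdkn2b ran with the smooth muscle list at 0.70. Bhlhe40 ran with the smooth muscle list at 0.87 and with the macrophage list at 0.79, Tgfbi with the Schwann cell precursor and macrophage lists at 0.85 and 0.83, and Ltbp2 with the neuron list at 0.69. Their part in the changes of the members was not tested.

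Among the matrix genes, Ltbp2 encodes a protein of microfibrils that, unlike its relatives, is not known to hold latent TGF-beta. It was the member with the largest difference in any region. In the proximal maxilla its values were 6.53, 6.21 and 6.03 in knockout arrays, against 5.43, 5.12 and 5.22 in control arrays. The groups did not overlap, and Ltbp2 rose by 1.00 (SE 0.27, adjusted p = 0.0393, limma). In this region 859 genes were called (5.77%), 3.25% of the genes tested as higher, and 2 of the 7 members were among them. Every control array lay under the array's 30th percentile (5.85 to 5.93), and 4 of the 12 knockout arrays lay above it. Ltbp2 thus passed the filter through knockout arrays alone, and the change is set against values near background. With no filter on low values Ltbp2 had the same change and an adjusted p of 0.0438.

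In the distal maxilla one array stood out, since Ltbp2 had 6.80, 5.41 and 5.28 in knockouts, against 5.28, 5.26 and 5.18 in controls. The groups did not overlap, and the change of 0.59 was not called. In the mandible all 12 values lay between 4.80 and 5.53, below the 30th percentile: 5.53, 5.21 and 4.96 distally and 5.43, 5.16 and 5.14 proximally in knockouts, against 4.80, 5.01 and 5.00 distally and 5.36, 5.12 and 4.84 proximally in controls. The 3 highest groups were those of the knockout proximal maxilla, the knockout distal maxilla and the control proximal maxilla, and each group's range overlapped that of the next in order, down to the lowest.

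The start of Ltbp2 is shown because it was one of the 2 members called in a region. The gene lies on chromosome 12 from 84783212 to 84876558 (GRCm38.p6), on the minus strand. The 183 bases printed are chr12:84876559-84876741, on the minus strand, ahead of the annotated start, from RefSeq on that build, and capitals mark CAGAC or its reverse complement GTCTG, the repeat unit of the Smad binding element.
Ltbp2: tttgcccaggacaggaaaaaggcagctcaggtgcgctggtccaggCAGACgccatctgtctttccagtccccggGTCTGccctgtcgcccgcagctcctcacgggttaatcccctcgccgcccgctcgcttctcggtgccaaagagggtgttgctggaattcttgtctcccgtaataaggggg
CAGAC on either strand stood in 49.6% of 32851 mouse promoter windows of 300 bases, so its presence does not set Ltbp2 apart.

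Postn encodes periostin, a matrix protein of collagen-rich connective tissue, and was high in every group. Proximal maxilla values were 12.74, 12.27 and 12.47 in knockout arrays, against 12.05, 11.98 and 11.95 in control arrays, without overlap. Distal maxilla values were 12.78, 12.39 and 11.82 in knockouts, against 11.92, 11.91 and 11.51 in controls, and overlapped. The changes of 0.50 and 0.55 were not called (adjusted p = 0.164 in the proximal maxilla). In the mandible the knockout values spread more widely than the control values: 13.11, 12.45 and 12.47 distally and 13.06, 12.31 and 12.997 proximally, against 12.32, 12.41 and 12.42 distally and 12.49, 12.44 and 12.43 proximally. The knockout groups had SDs of 0.38 and 0.42 there, against 0.06 and 0.03 in the control groups. The 2 control maxilla groups were the lowest of the 8, at 11.99 ± 0.05 proximally and 11.78 ± 0.24 distally, and did not overlap each other. The control proximal maxilla overlapped the group above it, the knockout distal maxilla.

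Tgfbi encodes a secreted matrix protein that binds collagen and integrins. Tgfbi in the proximal maxilla had 12.67, 12.42 and 12.52 in knockout arrays, against 11.04, 12.29 and 12.22 in control arrays. The groups did not overlap, and the change of 0.68 was not called (adjusted p = 0.159); without the control array at 11.04 the change was 0.28. In the other regions the change was 0.30 (distal mandible), -0.11 (proximal mandible) and 0.25 (distal maxilla). Its 4 probe sets ran together across the 24 arrays, with r between 0.88 and 0.98, and their changes over the regions were 0.28, 0.10, 0.10 and 0.32.

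**Figure D3:**
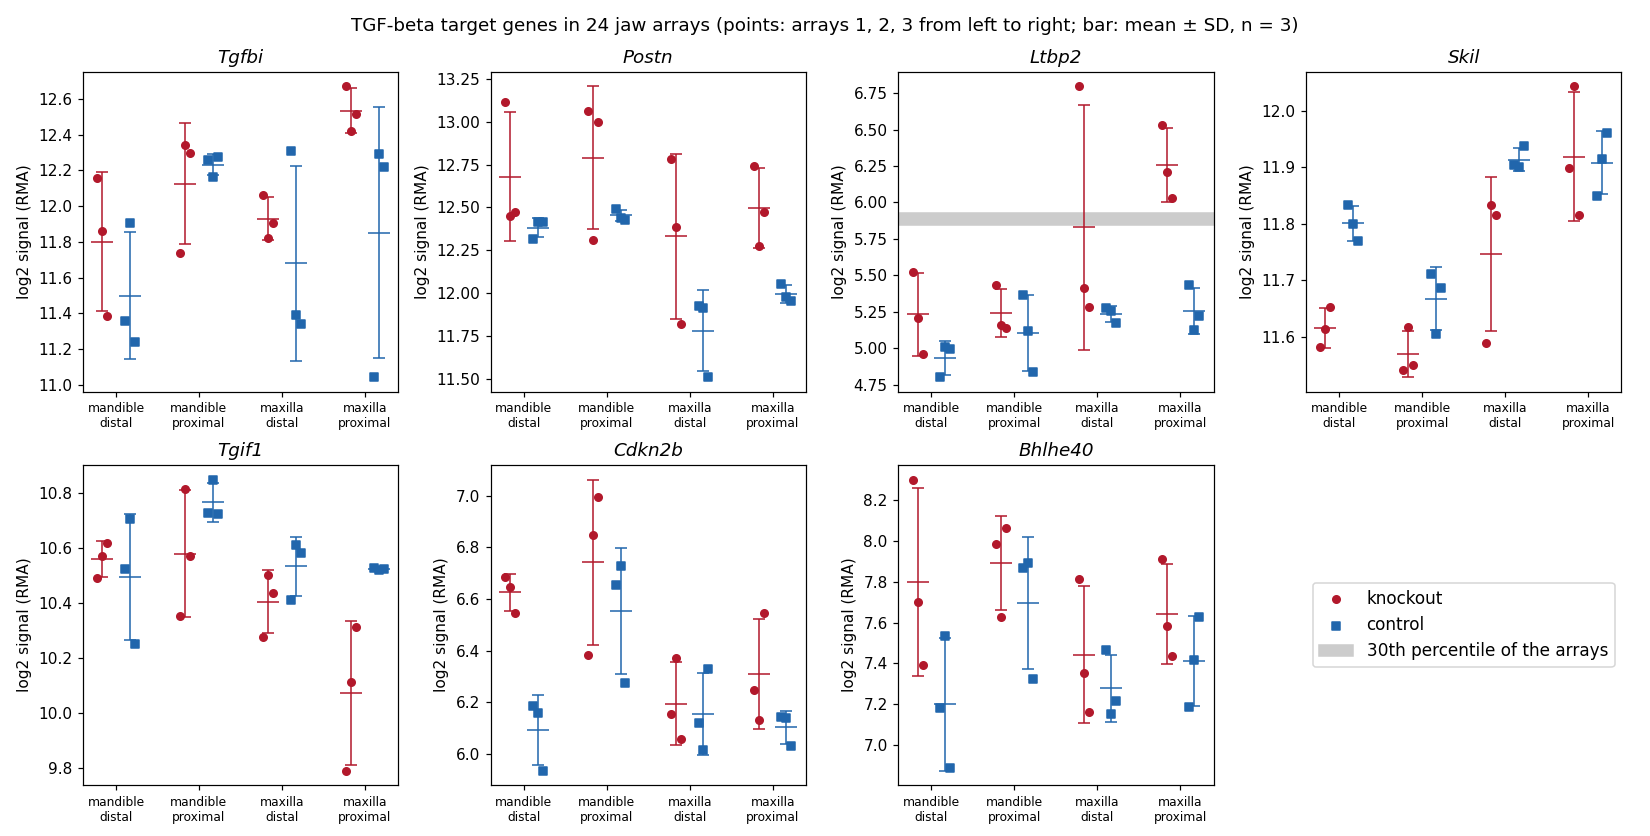
Log2 signal (vertical axis, own scale for each gene) of each member in every array, by region, with knockout points left of control points, arrays 1, 2 and 3 from left to right in each group, and bars at the mean ± SD of 3 arrays. The grey band is the 30th percentile of the arrays, above which Ltbp2 lay in 4 knockout arrays and in 0 control arrays.

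Among the nuclear brakes, Tgif1 is a homeodomain repressor that binds Smad2. In the proximal maxilla it had 9.79, 10.12 and 10.31 in knockout arrays, against 10.53, 10.52 and 10.53 in control arrays. All knockout values were lower, and Tgif1 fell by 0.45 on the log2 scale (SE 0.13, adjusted p = 0.0455, limma), where 2.53% of the genes tested were called as lower. In the other regions its change was 0.07 (distal mandible), -0.19 (proximal mandible) and -0.13 (distal maxilla), and the groups overlapped in each. The knockout proximal maxilla was the lowest of the 8 groups, at 10.07 ± 0.26, and overlapped its neighbour, the knockout distal maxilla at 10.41 ± 0.12. The control proximal mandible was the highest, at 10.77 ± 0.07.

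Tgif1 is shown for the same reason as Ltbp2. It lies on chromosome 17 from 70844205 to 70853532 (GRCm38.p6), on the minus strand, and has several annotated starts. The 250 bases ahead of the most upstream start are chr17:70853533-70853782, on the minus strand, from RefSeq, and capitals mark CAGAC and TGACA, the reverse complement of TGTCA, the core of the site that Tgif1 itself binds.
Tgif1: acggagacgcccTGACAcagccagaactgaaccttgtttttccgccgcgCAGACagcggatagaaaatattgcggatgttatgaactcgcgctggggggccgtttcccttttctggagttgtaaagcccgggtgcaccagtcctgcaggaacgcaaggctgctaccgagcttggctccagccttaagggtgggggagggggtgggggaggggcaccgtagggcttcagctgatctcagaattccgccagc
TGTCA on either strand stood in 45.5% of the 32851 windows. Of the 7 members 5 had an entry in the promoter table, with 10 promoters in all. None of these held GTCTAGAC, the palindromic Smad element found in 0.213% of windows, or CACGTG, the E-box to which Bhlhe40 binds, found in 7.15%.

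The 2 calls in the proximal maxilla lay in a region where markers of other cell types also moved. The neuron markers had a median change of 2.31 there, with Nefl, Nefm, Isl1 and Sncg of 7 called as higher. The list's level was 13.06, 12.81 and 11.20 in knockout arrays 1, 2 and 3, against 9.57, 9.93 and 9.91 in control arrays. The epithelial markers had a median change of -1.58, with Krt8, Krt18, Epcam and Cdh1 of 7 called as lower. Their level was 8.77, 8.82 and 10.63 in knockout arrays, against 11.14, 10.53 and 10.70 in control arrays. The muscle, Schwann cell precursor and macrophage lists had median changes of 2.968, 1.05 and 0.63, with Myh3 of 8, Fabp7, Foxd3 and Cdh19 of 5 and Ctss of 6 called as higher. Across the arrays as numbered, Ltbp2 and the neuron list were both highest in knockout 1 and lowest in knockout 3, and Tgif1 was lowest in knockout 1 and highest in knockout 3. In the control proximal mandible, however, the neuron list averaged 10.64 and Ltbp2 5.11, against 9.80 and 5.26 in the control proximal maxilla. Of the 6 facial mesenchyme markers, 5 had a negative change in the proximal maxilla, with a median of -0.52 and none called. That list's mean was 11.69 in the knockout group and 12.22 in the control group of this region. Over the 24 arrays this list ran with Tgif1 at r = 0.66 and with Ltbp2 at -0.56. The part of these cells in both calls was not tested.

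Neither call held without the 4 arrays numbered 1 singled out above. Ltbp2 then had a change of 1.08 (adjusted p = 0.105) and Tgif1 one of -0.45 (adjusted p = 0.113), where 15 genes or 0.101% were called. The change of Ltbp2 lay between 0.86 and 1.11 when any 1 array was left out, with adjusted p up to 0.212, and that of Tgif1 between -0.57 and -0.31, with adjusted p up to 0.274. Ltbp2 was called in 18 and Tgif1 in 8 of these 24 fits. Without knockout array 3 of the proximal maxilla, which also resembled the other end, the changes were 1.11 (adjusted p = 0.0144) and -0.57 (adjusted p = 0.0051). Leaving out any of the 3 control arrays, or knockout array 1 or 2, of the proximal maxilla ended both calls.

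Skil encodes SnoN, which binds Smads and represses their targets, and its own induction by TGF-beta is a known feedback. It had the smallest spread within groups of the members, with a residual SD of 0.07, against a median of 0.13 for all genes tested. In the distal mandible it had 11.58, 11.61 and 11.65 in knockout arrays, against 11.83, 11.80 and 11.77 in control arrays. In the distal maxilla it had 11.59, 11.83 and 11.82 in knockouts, against 11.90, 11.90 and 11.94 in controls. The groups overlapped in neither region, and the changes of -0.18 and -0.17 were not called (adjusted p = 0.237 in the distal mandible). In the proximal mandible the change was -0.10, with 11.54, 11.62 and 11.55 in knockouts, against 11.71, 11.60 and 11.69 in controls. In the proximal maxilla it was 0.01, with 11.90, 12.04 and 11.82 in knockouts, against 11.85, 11.91 and 11.96 in controls.

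Cdkn2b encodes an inhibitor of the cyclin D-dependent kinases through which TGF-beta halts the cell cycle. In the distal mandible it had 6.68, 6.65 and 6.55 in knockout arrays, against 6.19, 6.16 and 5.94 in control arrays. The groups did not overlap, and the change of 0.53 was not called (SE 0.15, adjusted p = 0.153). In the other regions the change was between 0.04 and 0.21 and the groups overlapped. Cdkn2b lay between 5.94 and 6.996 over the 24 arrays, not far above the 30th percentile (5.85 to 5.93). Its differences are thus set against values near background.

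Bhlhe40 encodes a basic helix-loop-helix repressor that also responds to hypoxia and the circadian clock. Its change was 0.60 in the distal mandible (adjusted p = 0.287), with 8.30, 7.70 and 7.39 in knockout arrays, against 7.18, 7.53 and 6.88 in control arrays. It lay between 0.17 and 0.23 in the other regions, and the groups overlapped in all 4. Every one of the 8 Bhlhe40 groups overlapped its neighbour in the order of the means, from 7.89 ± 0.23 in the knockout proximal mandible to 7.20 ± 0.33 in the control distal mandible.

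No member was called in the distal mandible, the proximal mandible or the distal maxilla, where 0.134%, 0.0538% and 0.0202% of the genes tested were. At an unadjusted p under 0.05 these regions held 3, 0 and 3 of the 7, against 12.6%, 2.86% and 2.65% of genes. Groups that did not overlap were found for 3 members in the distal mandible (Postn, Skil and Cdkn2b), against 14.5% of genes, for 0 in the proximal mandible (9.45%), for 2 in the distal maxilla (Ltbp2 and Skil, 6.9%) and for 4 in the proximal maxilla (Tgfbi, Postn, Ltbp2 and Tgif1, 25.3%). Whether the effect of the knockout differed between the jaws or between the ends was tested directly. No member was called in either test, against 0.0336% of genes between jaws and 0.00672% between ends, and at an unadjusted p under 0.05 there was 1 member in each, against 6.62% and 4.29% of genes. The test between jaws averages both ends. The effect in the mandible minus that in the maxilla was -0.58 for Ltbp2 (SE 0.27, adjusted p = 0.741, limma) and 0.23 for Tgif1 (SE 0.13, adjusted p = 0.836). It was not tested at the proximal ends alone, so whether the calls in the proximal maxilla are particular to that jaw is not shown.

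Between the jaws, Skil was called at the proximal ends in both genotypes. Its proximal values in knockouts were 11.54, 11.62 and 11.55 in the mandible and 11.90, 12.04 and 11.82 in the maxilla, and Skil was lower in the mandible by 0.35 (difference -0.35, SE 0.07, adjusted p = 0.00221, limma). In controls the proximal values were 11.71, 11.60 and 11.69 in the mandible and 11.85, 11.91 and 11.96 in the maxilla, and the difference was -0.24 (SE 0.07, adjusted p = 0.0198). Neither pair of groups overlapped. Members with groups apart at the proximal ends were Tgfbi, Ltbp2, Skil and Tgif1 in knockouts, 4 of 7 against 26.2% of genes, and Postn, Skil, Tgif1 and Cdkn2b in controls, 4 of 7 against 45.6%. At the proximal ends 1897 genes were called in knockouts (12.7%) and 2151 in controls (14.5%). A second probe set of Skil, averaging 6.26 over the arrays, did not follow the first (r = -0.045), and its differences were 0.18 in knockouts and 0.20 in controls, neither called. With the mean of both probe sets the differences were -0.08 and -0.02, and with arrays centred on their medians -0.30 (adjusted p = 0.0133) and -0.17 (adjusted p = 0.116).

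Ltbp2 and Tgif1 were called between the proximal ends of knockout jaws. Ltbp2 had 5.43, 5.16 and 5.14 in the mandible, against 6.53, 6.21 and 6.03 in the maxilla, a difference of -1.01 (SE 0.27, adjusted p = 0.0194) that is again set against values near background, with an adjusted p of 0.022 when no filter was applied. Tgif1 had 10.35, 10.82 and 10.57 in the mandible, against 9.79, 10.12 and 10.31 in the maxilla, a difference of 0.51 (SE 0.13, adjusted p = 0.0146). Neither pair of groups overlapped. In control jaws the differences at the proximal ends were -0.15 for Ltbp2 (adjusted p = 0.755) and 0.24 for Tgif1 (adjusted p = 0.223). This comparison and that of the genotypes in the proximal maxilla share the 3 knockout arrays of that region, and whether the jaw difference changed with genotype at the proximal ends alone was not tested.

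Without the 4 arrays numbered 1 singled out above, Ltbp2, Skil and Tgif1 stayed called in knockouts, at -1.11, -0.34 and 0.62, and Cdkn2b was called too, at 0.61 (adjusted p = 0.0224), where 10.7% of genes were called. The values of Cdkn2b lie near background, as given above. The call of Skil in knockouts held with any 1 array left out. Ltbp2 lost its call without knockout mandible array 2 or 3 (adjusted p = 0.0543 and 0.0672) or knockout maxilla array 1 or 2 (0.0875 and 0.0538), all proximal, and Tgif1 without knockout mandible array 2 (0.0712) or knockout maxilla array 1 (0.088). Without the 4 control arrays numbered 2, Ltbp2 kept its difference of -1.01 with an adjusted p of 0.0537. Skil stayed called in controls without the 4 arrays numbered 1 singled out above, at -0.27 (adjusted p = 0.0489), where 8.11% of genes were called. It was not called without control mandible array 2 (adjusted p = 0.0928) or control maxilla array 3 (0.0652), both proximal, and not without the 4 control arrays numbered 2, at -0.21 (adjusted p = 0.2).

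At the distal ends no member was called between the jaws, against 7.88% of genes in knockouts and 14% in controls, and 2 and 1 of the 7 had an unadjusted p under 0.05, against 26.6% and 29.3% of genes. Postn had control values of 12.32, 12.41 and 12.42 in the mandible, against 11.92, 11.91 and 11.51 in the maxilla, a difference of 0.60 (SE 0.22, adjusted p = 0.0815, limma). In knockouts the distal values of Postn overlapped, at 13.11, 12.45 and 12.47 in the mandible and 12.78, 12.39 and 11.82 in the maxilla. Groups were apart at the distal ends for Cdkn2b in knockouts, 1 of 7 against 30% of genes, and for Postn, Ltbp2 and Skil in controls, 3 of 7 against 36.1%. Every control value of Ltbp2 lay under the 30th percentile, so its separation is among values near background. Cdkn2b had differences of 0.43 at both ends in knockouts and of -0.06 distally and 0.45 proximally in controls, with adjusted p of 0.0789 and 0.0633 in knockouts and 0.824 and 0.0502 in controls. These too are set against values near background.

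**Figure D4:**
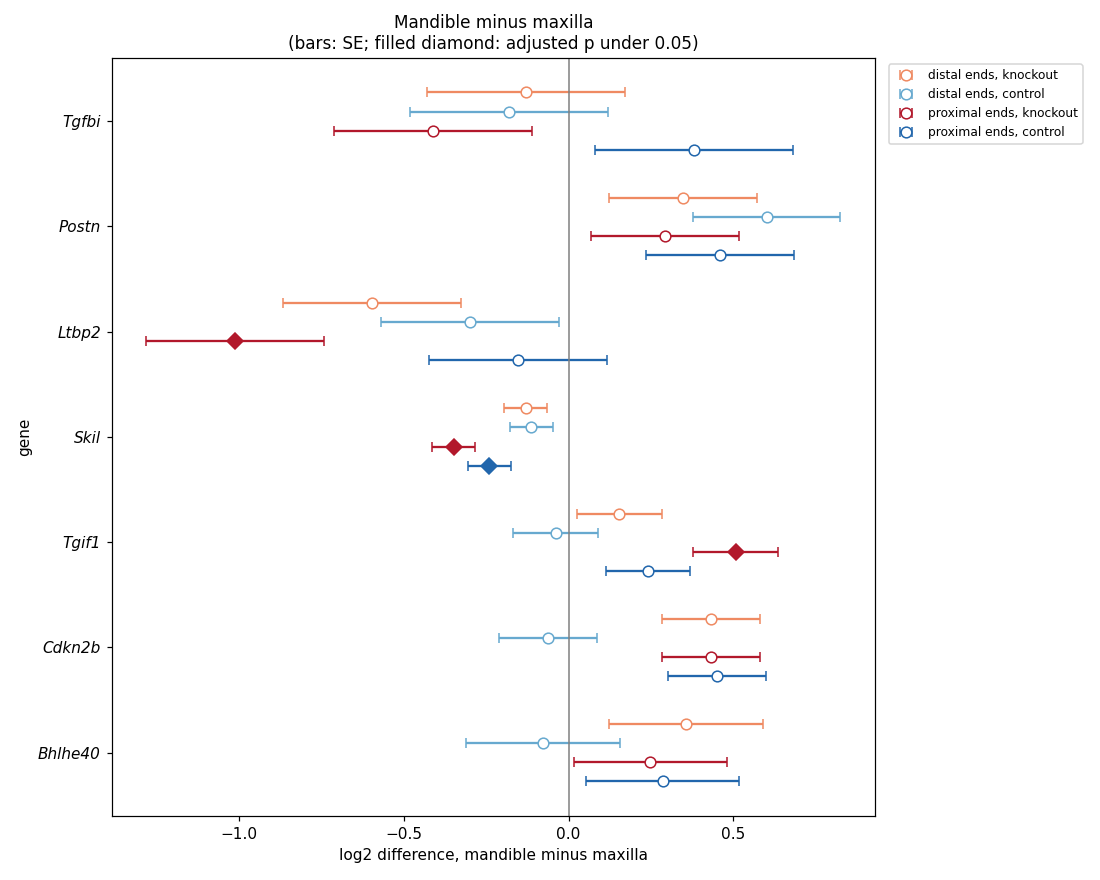
Difference between mandible and maxilla (log2, horizontal axis) of each member at the distal and proximal ends in knockouts and controls. Bars are standard errors and filled diamonds mark an adjusted p under 0.05: Ltbp2 at -1.01, Skil at -0.35 and Tgif1 at 0.51 in knockouts and Skil at -0.24 in controls, all at the proximal ends.

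Between distal and proximal ends no member was called in the mandible or maxilla of either genotype. The share of genes called was 0% in the knockout mandible, 6.16% in the knockout maxilla, 3.45% in the control mandible and 0% in the control maxilla, and 0, 2, 4 and 0 members had an unadjusted p under 0.05, against 0.484%, 27.2%, 18.6% and 0.692% of genes. Tgfbi had the largest difference of the members in each jaw and genotype but the control maxilla, where Postn had -0.21 and Tgfbi -0.17. In the control mandible it had 11.36, 11.90 and 11.24 distally, against 12.26, 12.17 and 12.27 proximally, a difference of -0.73 (SE 0.30, adjusted p = 0.19). In the knockout maxilla it had 12.06, 11.82 and 11.90 distally, against 12.67, 12.42 and 12.52 proximally, a difference of -0.61 (adjusted p = 0.201). Both pairs of groups were apart. In the control mandible Tgfbi, Postn, Skil, Tgif1 and Cdkn2b were apart, 5 of 7 against 30.3% of genes, and in the knockout maxilla Tgfbi alone, against 21.2%. Postn alone was apart in the control maxilla (6.46% of genes) and no member in the knockout mandible (1.91%).

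In the control maxilla Tgfbi had 12.31, 11.39 and 11.34 distally, against 11.04, 12.29 and 12.22 proximally, and in the knockout mandible 12.16, 11.86 and 11.38 distally, against 11.74, 12.34 and 12.30 proximally. Arrays 2 and 3 were lower distally in both jaws and arrays 1 were higher distally. These arrays 1 are the 4 singled out above for resembling the other end over all genes. Without them Tgfbi was lower distally in the control mandible by 0.73 (difference -0.73, adjusted p = 0.00847), in the control maxilla (-0.89, adjusted p = 0.0348) and in the knockout maxilla (-0.61, adjusted p = 0.0261), where 6.62%, 0.699% and 8.9% of genes were called. In the knockout mandible the difference was then -0.70 and was not called. Leaving out arrays because they resemble the other end favours larger differences between ends, so these values are no independent test.

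Genes elsewhere in the pathway were not called over the 4 regions. Of 10 ligands and genes of ligand activation none was called, with a median change of 0.03. The receptors (5), Smads and their regulators (9), other TGF-beta target genes (9) and smooth muscle genes (5) likewise had none, with medians of 0.15, -0.03, 0.05 and 0.09. Myh11 did not pass the filter. Within the proximal maxilla 1 gene of these lists was called, Smad3, which fell by 0.36 on the log2 scale (adjusted p = 0.0394) and was named after its value was seen.

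Members did not follow one pattern across the 24 arrays. Correlations among them ran from -0.72 to 0.72: Postn with Bhlhe40 stood at 0.72, Postn with Skil at -0.72 and Ltbp2 with Tgif1 at -0.72. After subtraction of group means these 3 were 0.66, -0.61 and -0.46. Among all genes tested, those with the most similar profile (Pearson r over 24 arrays that share groups) were Akap7 (0.93), Shisa2 (0.92) and Thbd (0.91) for Tgfbi, and Gsn (0.95), Mef2c (0.93) and Tgfbr2 (0.90) for Postn. For Ltbp2 they were Tef (0.87), Ackr1 (0.86) and Zfp804a (0.85). For Skil they were Snhg14 (0.89), Yaf2 (0.88) and Rims2 (0.86), and for Tgif1 Rhobtb3 (0.91), Scaf11 (0.90) and Elavl1 (0.89). Cdkn2b was nearest to Tead4 (0.85), Gm15050 (0.84) and Zfp568 (0.83), and Bhlhe40 to Vkorc1 (0.94), P4hb (0.93) and Anxa6 (0.93).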

How the data were processed

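Biotin-labelled cRNA of 24 samples was hybridised to single-colour arrays, 1 array a sample. The deposited table gives log2 signal for 45101 probe sets, made by the authors with RMA according to the submitters' processing notes, in a version the sources used here do not state. Depth has no counterpart on arrays, and the number of arrays limits the precision. Names came from the platform annotation: 34945 probe sets had 1 symbol, and those with several (932), none (9160) or a control sequence (64) were left out. Symbols were updated by Entrez number for 34741 of them (RefSeq, GRCm38.p6). The probe set of highest mean across the 24 arrays stood for a gene, and genes exceeding their array's 30th percentile in at least 3 arrays were tested. Limma 3.58.1 (R 4.3.3) was fitted to all arrays with 8 group means and 16 residual degrees of freedom. Knockout was compared with control over and within regions and between jaws and ends, mandible with maxilla, and distal with proximal. The closest arrays differed by a root mean square of 0.17, so none was a copy.

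The members, lists, rule for named genes and alternatives were chosen with earlier results of these data known. All 7 members are named whatever their values, with the 3 genes most like each, and pathway genes where called over the regions. Array numbers shared by the groups were checked for pairing by the correlation of deviations from group means. Its median was 0.05 for equal number and region across genotypes (5 of 12 over 0.1), so knockout and control arrays were not paired. Within a genotype and number, which are different regions, it was 0.15 (23 of 36 over 0.1), against -0.06 between other numbers. Arrays of a genotype and number may thus not be independent, though the main fit took them so. Blocks were fitted only as alternatives. Alternatives covered centring, cyclic loess, filters, probe set means, prior, array weights, samples fitted, blocks and left-out arrays. The fit was tested on simulated data. Promoter sequences and gene positions are RefSeq's, and motifs were searched on both strands.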

Additional observations from a re-analysis of the deposited data

How the results depend on the processing

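All members kept the sign of their change over the 4 regions in every alternative run. The count of members called there was 0, and was 5 with array weights (Postn, Ltbp2, Skil, Tgif1 and Cdkn2b), 3 with the array number as a fixed replicate block (Postn, Ltbp2 and Skil) and 0 to 3 with 1 array left out, while the genes called (70) ran from 0 with the replicate block as 6 means to 2906 with array weights. With the replicate block as 6 means, or with genotype and number as a random replicate block, no member was called there. In the distal mandible 1 member, Cdkn2b, was called with array weights, against 0. In the proximal maxilla the count of 2 was 1 with centring, cyclic loess, no filter or without the 4 knockout arrays numbered 1 (Ltbp2), 1 with the 50th percentile filter (Tgif1; Ltbp2 was not tested), and 0 with only the groups compared, without the 4 singled-out arrays numbered 1, or without the 4 control arrays numbered 2; with 1 array left out it was 0 to 2, and the 859 genes called were 0 to 3245 under the other alternatives and 19 to 3366 with 1 array left out. Between knockout jaws, distal ends went from 0 to 1 with array weights (Skil) and 0 to 1 with 1 array left out. The proximal ends went from 3 to 0 with only the groups compared, to 4 without the 4 singled-out arrays numbered 1 (Cdkn2b added), and 1 to 4 with 1 array left out. Over the alternatives other than single arrays left out, Tgif1 was called there in 13 of 14, Skil in 12 of 14, Ltbp2 in 11 of 13 and Cdkn2b in 4 of 13. Between control jaws, distal ends went from 0 to 1 (Postn) with array weights, only the groups compared, each replicate block or without the 4 knockout arrays numbered 1, and 0 to 1 with 1 array left out. Proximal ends went from 1 to 2 with cyclic loess, the random replicate block or without those 4 knockout arrays (Skil and Cdkn2b), to 0 with probe set means or without the 4 control arrays numbered 2, to 3 with only the groups compared, to 4 with array weights, and 0 to 2 with 1 array left out. Between ends, the knockout maxilla went from 0 to 1 with cyclic loess (Skil), array weights or the fixed replicate block of genotype and number (Tgif1), or without the 4 singled-out arrays numbered 1 (Tgfbi), and 0 to 2 with 1 array left out. The control mandible went from 0 to 3 with array weights (Tgfbi, Cdkn2b and Bhlhe40) and to 1 (Tgfbi) with only the groups compared or without those 4 arrays, as did the control maxilla without them. Genes called moved by over 1.5 times too, over the alternatives other than single arrays left out: 0 to 642 in the distal mandible (20), 0 to 294 in the proximal mandible (8) and 0 to 14 in the distal maxilla (3); between knockout jaws 270 to 2507 distally (1173) and 26 to 3327 proximally (1897), between control jaws 514 to 3288 (2086) and 649 to 6001 (2151); and between ends 0 to 16 (0) and 1 to 3279 (917) in the knockout mandible and maxilla, 27 to 2504 (513) and 0 to 104 (0) in the control mandible and maxilla. The cause of these shifts was not tested. The alternative without the 4 knockout arrays numbered 1 was chosen after the data were seen, and a group left with 2 arrays was assumed to vary like the others. Arrays give no depth, and values under the 30th percentile, as for Ltbp2 in all control arrays, limit the size of its changes.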
